A study of Mus musculus with 2 samples.

Results

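Members of the 14-3-3 family, the 4 genes Ywhag, Ywhae, Ywhaz and Ywhab, were followed in 2 iCLIP libraries from the cytoplasm of cultured mouse forebrain neurons. Reads were assigned to a gene when they lay wholly inside a window of the mm9 genome on the strand of the gene. The windows were chromosome 5 from 136384000 to 136411500 (minus strand) for Ywhag, chromosome 11 from 75544500 to 75581500 (plus) for Ywhae, chromosome 15 from 36698500 to 36728000 (minus) for Ywhaz, and chromosome 2 from 163819000 to 163846500 (plus) for Ywhab. Of 64820 anti-Rbfox1 reads 1398 fell in these windows, and of 569 anti-Flag reads 2 did. The genes were chosen by the number of anti-Rbfox1 reads and clusters seen in these same data, so their read counts are given as a description and were not tested.

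The 14-3-3 proteins are small adaptor proteins that work as dimers and hold partner proteins at phosphorylated serine or threonine residues. They are abundant in brain, where they act on kinases, ion channels and cytoskeletal proteins. Ywhag encodes the gamma form, Ywhae the epsilon form, Ywhaz the zeta form and Ywhab the beta form, and in humans changes in YWHAG are known from an early epileptic encephalopathy and loss of YWHAE from Miller-Dieker lissencephaly. The neuronal RNA-binding protein Rbfox1 recognises GCATG in RNA (written with T for U), most often as TGCATG. In the nucleus it is known as a splicing regulator, and a cytoplasmic form is known to bind 3′ untranslated regions (UTRs) of mRNAs.

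The anti-Rbfox1 library (n = 1) and the anti-Flag control library (n = 1) came from the same kind of culture, forebrain neurons kept for 14 days in vitro. The cultures were exposed to 254 nm light at 500 mJ/cm2, which joins proteins to the RNA they touch, and the material released by brief lysis with 0.1% Triton X-100 was taken as cytoplasm. An iCLIP read starts next to the joined base, so the base 1 nt upstream of the read is called the crosslink position here. Cells other than neurons in the culture, and RNA abundance, were not measured, so more crosslinking per mRNA and more mRNA cannot be told apart. Each antibody had 1 library, so no difference has a replicate check and all intervals are 95% intervals for counting error only.

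Matches to the Rbfox motif were looked for in the 3′ UTR of the longest protein-coding transcript of each gene in GENCODE M21 (GRCm38). The files use mm9, so no read was placed on these sequences, and a match is a description and not a site of binding. The transcript strand alone was searched, for GCATG and, within those matches, for TGCATG. The 4 UTRs held 10 matches to GCATG, of which 5 were TGCATG. These 5 are shown with their flanks because TGCATG is the form Rbfox proteins are best known for, with the 6 bases of the motif in capitals and U written as T. Positions count from the first base of the UTR to the G of GCATG.
Ywhag, position 1447: acgcccggtTGCATGcagagtgtgc
Ywhag, position 2029: acagtattgTGCATGctggtgttgt
Ywhae, position 684: atggaagccTGCATGcgtgttcaac
Ywhaz, position 859: tgcctaacaTGCATGtgctgtaaaa
Ywhab, position 1317: cagggaagtTGCATGgacactacag

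The Ywhag UTR of 2586 nt held 4 GCATG matches, the Ywhae UTR of 1173 nt held 3, the Ywhaz UTR of 1948 nt held 2 and the Ywhab UTR of 1863 nt held 1. Ywhae had the highest density, at 2.56 per kb, followed by Ywhag at 1.55, Ywhaz at 1.03 and Ywhab at 0.537 per kb, against 0.965 per kb over the 3′ UTRs of 20952 genes. A single match is common in UTRs this long. Of 1234 genes with a 3′ UTR within 10% of the length of the Ywhag one, 91.7% held GCATG and 59.7% TGCATG. The shares were 63.8% and 31.6% of 1366 genes near the length of Ywhae, 83.8% and 49.96% of 1367 near Ywhaz, and 82.0% and 48.6% of 1403 near Ywhab. The median number of GCATG matches in these genes was 2 near Ywhag, 1 near Ywhae, 2 near Ywhaz and 2 near Ywhab. The densities rest on 1 to 4 matches per gene and were not tested. Among the other 14-3-3 genes, Ywhah (eta) held 1 GCATG match in 771 nt, Ywhaq (theta) 2 in 1285 nt and Sfn (sigma, known as an epithelial form) 0 in 467 nt. Reads of those 3 genes were not analysed here, since their mm9 positions were not at hand.

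**Figure D1:**
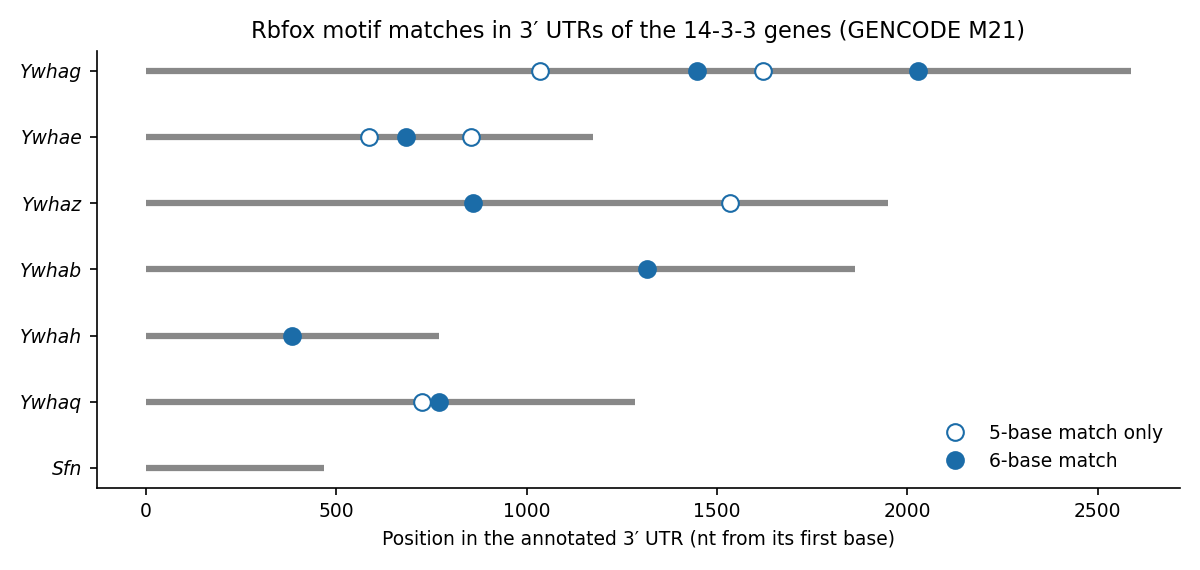
Rbfox motif matches along the annotated 3′ UTRs of the 7 14-3-3 genes, in nt from the first base of the UTR. Filled circles are TGCATG, open circles GCATG without the leading T, and grey bars show UTR length; Ywhag has 4 matches and Sfn none.

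Ywhag held 985 anti-Rbfox1 reads, 1.52% of that library (1.43 to 1.62), and 2 anti-Flag reads. Ywhae held 204 anti-Rbfox1 reads, 0.315% of the library (0.273 to 0.361), Ywhaz held 184, 0.284% (0.244 to 0.328), and Ywhab held 25, 0.0386% (0.0250 to 0.0569), and none of these 3 genes held an anti-Flag read. Ywhag thus supplied 70.5% of the 1398 reads. Set against the length of the annotated transcript, the density of anti-Rbfox1 reads was 279.8 per kb in Ywhag (262.6 to 297.9), 97.1 per kb in Ywhae (84.3 to 111.4), 55.96 per kb in Ywhaz (48.2 to 64.7) and 8.30 per kb in Ywhab (5.37 to 12.3). Per kb of genomic window the order of Ywhae, at 5.51 reads (4.78 to 6.32), and Ywhaz, at 6.24 (5.37 to 7.21), was the other way round with overlapping intervals, so those neighbours cannot be ordered without regard to the length used. Ywhag was highest and Ywhab lowest on both scales.

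Crosslink positions no more than 20 nt apart formed a cluster, and clusters are numbered from the 3′ end of each gene. The 7 Ywhag clusters fell into 3 places. The 3′ group, chromosome 5 from 136384278 to 136385081, held 791 reads, 80.3% of the gene, in 4 clusters over 804 nt. Next to it upstream, after a gap of 1313 nt, 2 clusters from 136386395 to 136386767 held 188 reads (19.1%). A last cluster of 6 reads from 136410276 to 136410320 lay a further 23508 nt upstream. No deposited anti-Rbfox1 read lay between these places.

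Within the 3′ group of Ywhag the reads were spread almost evenly over 3 clusters. Cluster 1 held 252 reads (25.6% of the gene, 22.9 to 28.4), cluster 2 held 262 (26.6%, 23.9 to 29.5) and cluster 3 held 237 (24.1%, 21.4 to 26.9), with gaps of only 12 and 20 nt between them. Their intervals overlapped, so none of the 3 stood out as the main one, and with positions up to 50 nt apart joined they formed 1 cluster of 751 reads, 76.2% of the gene. Cluster 3 was the most compact, with 68 crosslink positions in 83 nt, and 123 of its reads covered the same base. Cluster 1 spread over 185 nt with 100 positions and at most 72 reads over a base. Cluster 4, with 40 reads (4.06%), lay 158 nt upstream of cluster 3.

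In the upstream pair of Ywhag clusters, cluster 5 stood apart in reads per position and in read length. Cluster 6 was near clusters 1 and 2 in these 2 measures. Its top position, however, held 14.3% of its reads, beside 5.95% in cluster 1 and 3.05% in cluster 2. Cluster 5, from 136386395 to 136386477, held 104 reads at only 20 crosslink positions, 5.20 reads per position, and 20 of them (19.2%) had their crosslink at 136386453, the position with most reads in any of the 4 genes. A neighbouring position, 136386450, held 14. Cluster 6, from 136386682 to 136386767, held 84 reads at 32 positions, 2.63 per position, with 12 at 136386753. Measured from the most 3′ base read, the 6 Ywhag clusters other than the distant one reached 2489 nt upstream, a distance to be set beside the annotated 3′ UTR of 2586 nt only as a length.

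Ywhae had a single deep place near the 3′ end of its reads. On chromosome 11, 185 of its 204 reads (90.7%) lay within 232 nt, from 75578836 to 75579067. Cluster 2 there held 134 reads (65.7% of the gene, 58.7 to 72.2) at 65 positions, of which 13 shared 75578858 and 8 shared 75578846. Cluster 1, separated from it by 12 nt, held 51 reads (25.0%, 19.2 to 31.5). A cluster of 13 reads from 75570454 to 75570502 and another of 6 reads from 75565421 to 75565465 lay 8333 and a further 4988 nt upstream. Ywhae thus shared with Ywhag a dense 3′ group and few reads far upstream, but had no intermediate group.

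Ywhaz had no reads outside a single stretch. All 184 lay between 36700538 and 36701469 on chromosome 15, in 7 clusters over 932 nt. Cluster 4 held 64 reads (34.8%, 27.9 to 42.1) and cluster 1 held 53 (28.8%, 22.4 to 35.9), and their intervals overlapped. Joined within 50 nt, clusters 2, 3 and 4 formed 1 cluster of 98 reads (53.3%). The position with most reads was 36700888 in cluster 4, with 8. Cluster 2 held 25 reads, 7 of them at 36700780, and clusters 3, 5, 6 and 7 held 9, 9, 12 and 12. The Ywhaz clusters 4 to 7 were 73 to 180 nt apart, while clusters 2, 3 and 4 overlapped by 25 and 26 nt through the bodies of their reads. Ywhag likewise had 3 nearly contiguous clusters, its largest, and wider gaps of 158 nt between clusters 3 and 4 and 204 nt between clusters 5 and 6.

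Ywhab was the shallowest. On chromosome 2, 12 reads lay from 163844216 to 163844285, 7 from 163844131 to 163844175 and 6 from 163842463 to 163842506, the last group 1624 nt upstream of the others. The highest cluster held 48.0% of the gene's reads, with an interval of 27.8 to 68.7 that covers the shares of the highest clusters of Ywhaz and of Ywhae. The share in Ywhag, 26.6% (23.9 to 29.5), lay just below that interval, but the intervals of both genes overlapped. No Ywhab position held more than 3 reads.

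**Figure D2:**
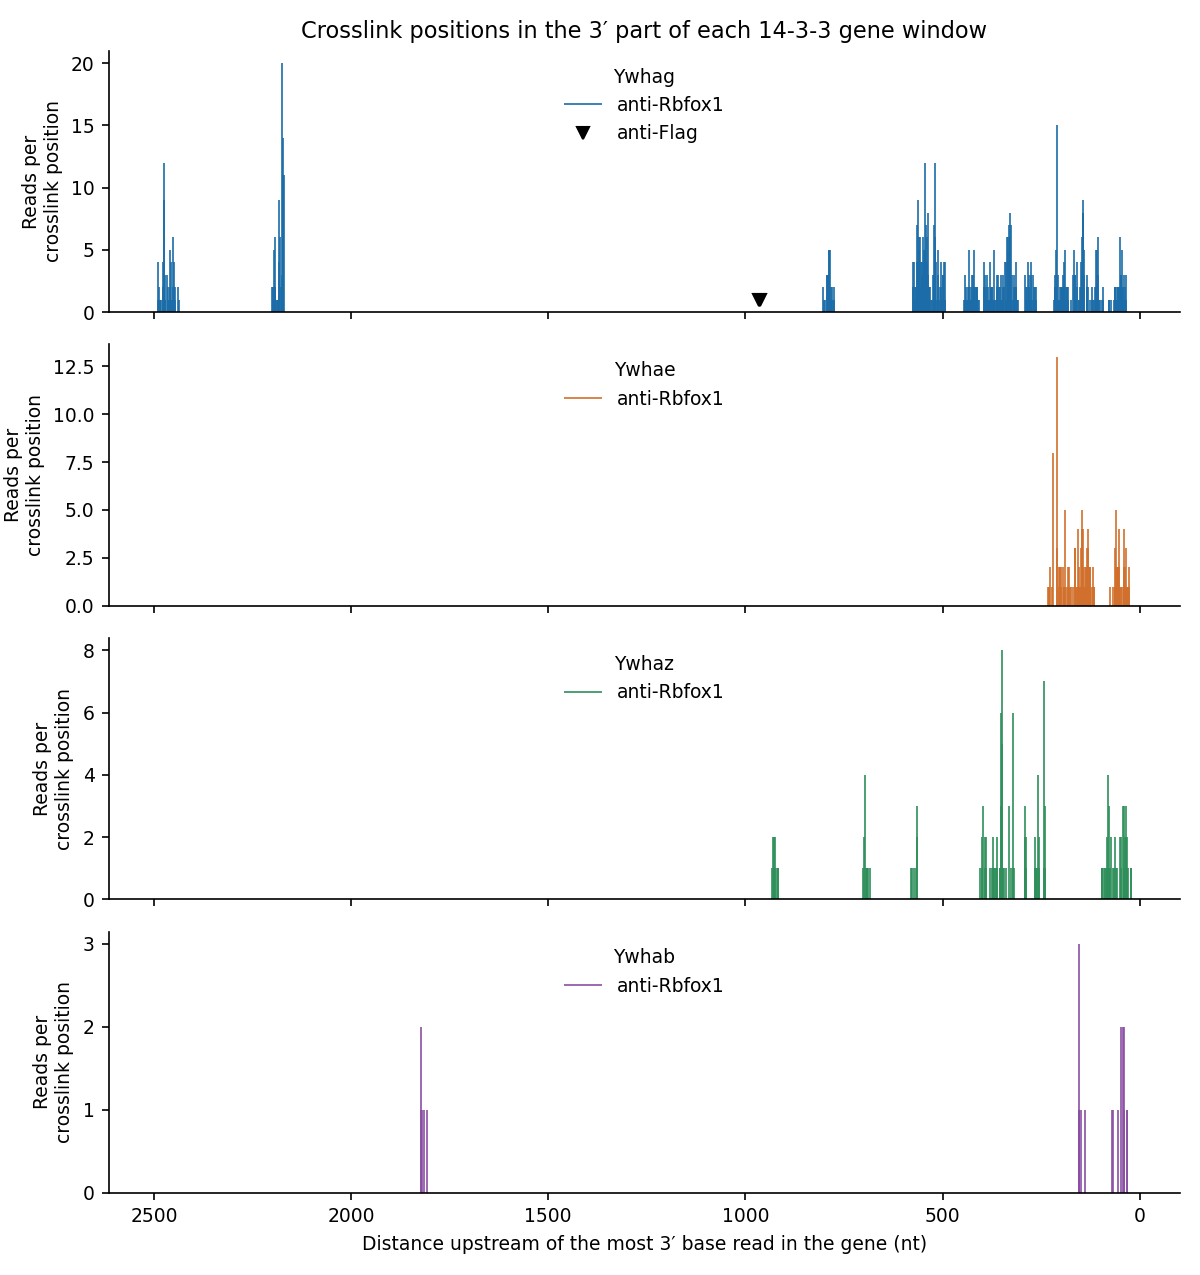
Reads per crosslink position against the distance upstream of the most 3′ base read in each gene, in nt, with the 5′ side at the left and a separate vertical scale for each gene. Coloured lines are anti-Rbfox1 reads and the triangles are the 2 anti-Flag reads of Ywhag, which lie between the 3′ group and the upstream pair; 1 Ywhag and 2 Ywhae clusters farther upstream, of 6, 13 and 6 reads, are outside the range drawn.

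Clusters of the 4 genes held between 6 and 262 reads, where the library ranged from 2 to 416. Of their 21 anti-Rbfox1 clusters 15 held 10 reads or more (6 of 7 in Ywhag, 3 of 4 in Ywhae, 5 of 7 in Ywhaz and 1 of 3 in Ywhab), where 12.3% of all 10134 clusters did. Among the 4980 clusters of the block of file lines that held most of them, described further on, the share was 22.0%. At 50 reads or more there were 9 (5 of Ywhag, 2 of Ywhae, 2 of Ywhaz), against 1.75% of all clusters. Since the genes were chosen for their reads, nothing is read from these shares. By reads, Ywhag clusters 2, 1 and 3 ranked 7, 8 and 11 in the library, the highest Ywhae cluster ranked 30, the highest Ywhaz cluster 105 and the highest Ywhab cluster 928. When clusters up to 1000 nt apart were joined into stretches, the deepest stretch of Ywhae, with 185 reads, ranked 43 and that of Ywhaz, with 184, ranked 44 of 7297, next to the upstream pair of Ywhag with 188 at 42.

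**Figure D3:**
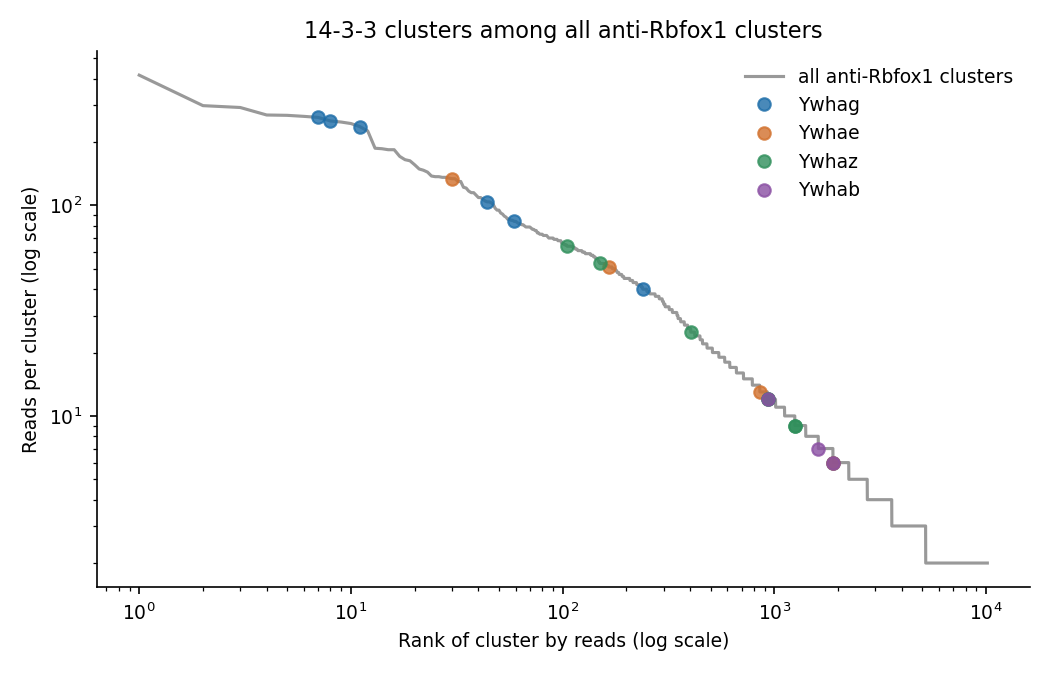
Reads per cluster against the rank of the cluster by reads, both on log scales, for all 10134 anti-Rbfox1 clusters (grey line) and the 21 clusters of the 4 genes (circles, partly on top of each other at equal depth). Ywhag holds ranks 7, 8 and 11, while all Ywhab clusters lie at rank 928 or beyond.

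The number of reads per crosslink position rises with the reads by which the genes were chosen, so it is given as a description. Of 362 Ywhag positions 36.7% held 1 read and 57 (15.7%) held 5 or more, and of 107 Ywhae positions 53.3% held 1 read and 5 held 5 or more. In Ywhaz 62.3% of 106 positions and in Ywhab 73.7% of 19 positions held 1 read. Outside the windows, 79.9% of 47302 positions held 1 read and 1.60% held 5 or more. The order was the same for the mean number of reads, 2.72 per position in Ywhag, 1.91 in Ywhae, 1.74 in Ywhaz and 1.32 in Ywhab, against 1.34 outside the windows. The positions with most reads that together held 50% of the reads were 80 in Ywhag (22.1% of its positions), 28 in Ywhae (26.2%), 27 in Ywhaz (25.5%) and 7 in Ywhab (36.8%), beside 33.0% of the positions outside the windows. Counting reads that shared a 3′ end and began 1 nt apart as 1 read left 78.2% of the Ywhag reads, 86.3% of Ywhae, 87.5% of Ywhaz and 96.0% of Ywhab, beside 89.2% of the other anti-Rbfox1 reads.

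**Figure D4:**
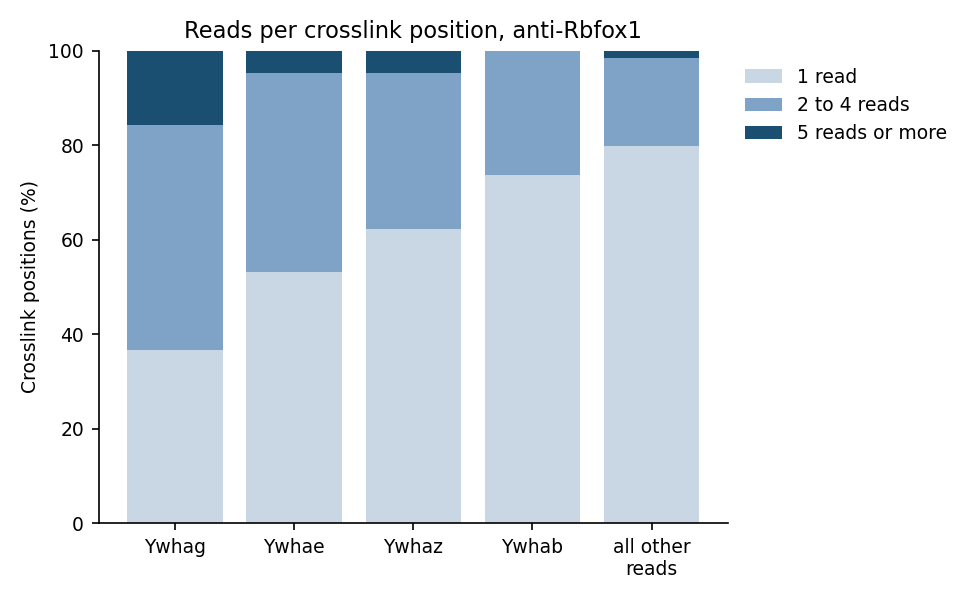
Share of crosslink positions (%) that held 1, 2 to 4, or 5 or more anti-Rbfox1 reads, for each gene and for all reads outside the 4 windows. The share with 1 read is 36.7% in Ywhag and 79.9% outside the windows. Reads outside the windows include blocks of file lines with at most 1 read per leftmost base.

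The 9 clusters of 50 reads or more are set beside the 168 such clusters elsewhere, as a description. Depth was not matched, with a median of 104 reads in the 9 (quartiles 64 and 237) and 69.5 in the others (59 and 98), and the measures below can rise with depth. The 9 clusters had a median of 2.18 reads per crosslink position (range 1.56 to 5.20) and the 168 others 1.85 (1.00 to 5.29). Crosslinks were found on a median of 59.2% of the bases between the outer positions in the 9 and 51.1% in the others. In the 9 clusters, the top position held a median of 9.70% of reads, beside 8.40% in the others. Ywhag clusters 3 and 5 lay near the edge of this distribution. Only 2 of the 168 others had more reads per position than cluster 3, at 3.49, and only 1 had more than cluster 5. Crosslinks used 81.9% of the bases in cluster 3, which 3 of the others exceeded.

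Read length was not used to choose the genes, and the medians of the genes were within 2 nt of each other. The median was 28 nt in Ywhag (quartiles 22 and 36), 26 nt in Ywhae (21 and 33.3), 28 nt in Ywhaz (23 and 35) and 28 nt in Ywhab (24 and 33), and 28 nt in the anti-Rbfox1 reads outside the windows (23 and 35). Reads under 20 nt made up 12.9% of Ywhag, 15.7% of Ywhae, 12.5% of Ywhaz and 0% of Ywhab reads, beside 9.79% elsewhere. Ywhag cluster 5 differed, with a median of 38 nt (31 and 47.3) and reads of up to 61 nt. None of the 168 other clusters of 50 reads or more had a longer median, the highest being 37 nt. In Ywhag cluster 6, 204 nt away, the median was 26 nt (23 and 30.3). The reads of cluster 5 reached farther downstream from a narrow set of crosslinks, and the part of fragment size or of collapse in this was not tested.

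**Figure D5:**
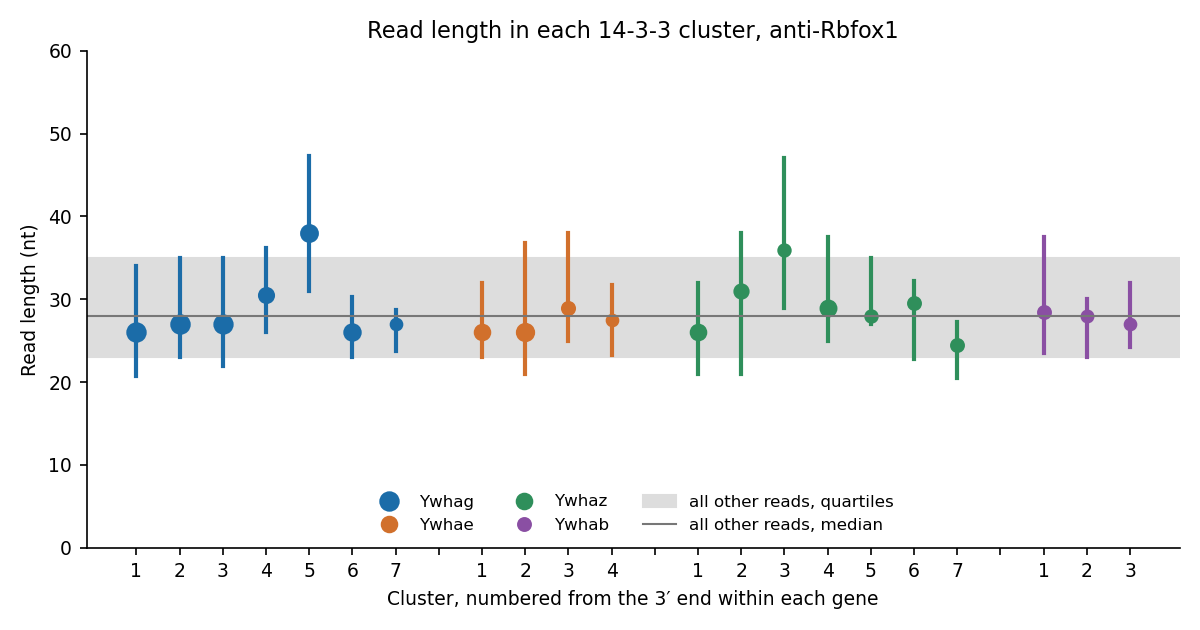
Median read length (circles, larger with more reads) and quartiles (lines) in nt for each anti-Rbfox1 cluster, numbered from the 3′ end within each gene. The grey band and line are the quartiles and the median, 28 nt, of all anti-Rbfox1 reads outside the windows; Ywhag cluster 5 has a median of 38 nt.

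The control library shows how many reads the windows held without an antibody to Rbfox1. In the windows the anti-Rbfox1 library held 2.16% of its reads (2.05 to 2.27) and the anti-Flag library 0.351% of its reads (0.0426 to 1.26), a ratio of shares of 6.14 (1.70 to 50.7). The choice of the genes by their anti-Rbfox1 reads favoured a ratio above 1, so the ratio and its interval are a description and no measure of enrichment. At an equal share, 12.3 control reads would have fallen in the windows, 8.65 of them in Ywhag, 1.79 in Ywhae, 1.61 in Ywhaz and 0.220 in Ywhab. For the last 3 genes a count of 0 allows up to 0.527% of the control library, which is more than their anti-Rbfox1 shares. Each of the 10134 anti-Rbfox1 clusters held at least 2 reads, and 171 of the 233 anti-Flag clusters held 2. If lone reads were left out of the deposited files, which was not tested, this bound can be too low. Within the matched blocks of file lines the ratio was 2.64 (0.730 to 21.8), and by distinct crosslink positions it was 3.26 (0.897 to 26.9). The matched blocks held 74.15% of the anti-Rbfox1 reads but 32.5% of the anti-Flag reads, so the 6.14 depends on the make-up of the control library. Counted as clusters, 21 for anti-Rbfox1 and 1 for anti-Flag, the direction of the ratio turned, to 0.483 (0.0776 to 19.97). A cluster counts as 1 at any depth, and the libraries held 10134 and 233 clusters from 64820 and 569 reads.

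Both control reads lay in Ywhag, on the minus strand from 136385216 to 136385242. They were 26 and 27 nt long and shared their 3′ end, with crosslinks at 136385242 and 136385243. They fell into the gap between the 3′ group and the upstream pair, with their outer base 135 nt from Ywhag cluster 4, and overlapped no anti-Rbfox1 read. In the control library as a whole 141 of 569 reads (24.8%) overlapped an anti-Rbfox1 read. No control read overlapped any of the 21 anti-Rbfox1 clusters of the 4 genes, where 0.572% of all anti-Rbfox1 clusters had such an overlap. Among clusters of 50 reads or more, an overlap was present in 0 of the 9 and in 12 of the 168 others.

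The lines of the anti-Rbfox1 file fall into 11 blocks in which the chromosome order starts anew, and the meaning of these blocks was not stated in the sources used. The fourth block held 1373 of the 1398 reads (98.2%, 97.4 to 98.8) and 18 of the 21 clusters, beside 74.1% of all anti-Rbfox1 reads and 4980 of all 10134 clusters. It also held 1098 of the 1248 clusters of 10 reads or more in the library. The choice of the genes by reads and clusters thus favoured this block, and its shares are a description. Of the 21 clusters, the 3 that lay far upstream were the exceptions. The distant Ywhag cluster of 6 reads was in the seventh block, and the Ywhae clusters of 13 and 6 reads were in the ninth. All Ywhaz and Ywhab clusters, and the groups at the 3′ end of Ywhag and Ywhae, were in the fourth. The first block, with 15.4% of the anti-Rbfox1 reads, held none of the genes' reads. The 2 control reads were in the third block of the control file, which matches the fourth of the anti-Rbfox1 file by 71 overlapping reads. That control block held 32.5% of the control reads, while the first control block held 53.6%.

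No read crossed a window edge and none lay on the opposite strand inside a window in either library. The empty opposite strand allows up to 0.00463% of the anti-Rbfox1 library, unless lone reads were left out of the deposited files. The read nearest to an edge from inside was in Ywhag, 278 nt from it, and the nearest same-strand reads outside any window were 24937 nt from the Ywhae window, in a cluster of 10 reads. By name, the nearest protein-coding genes in RefSeq are Hspb1 and Ssc4d for Ywhag, Crk and Doc2b for Ywhae, Pabpc1 and Zfp706 for Ywhaz, and Rims4 and Pabpc1l for Ywhab. A long noncoding RNA locus overlaps Ywhag (Gm40346) and another Ywhaz (Gm41298). Reads of these loci could not be told apart from those of the gene on the same strand.

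Transcripts can share sequence with those of other genes, inside or outside the family. In the 3′ UTRs of GENCODE M21, 0.474% of the 28 nt words of Ywhag, 0.175% of Ywhae, 0.469% of Ywhaz and 0.545% of Ywhab were also found in a transcript of another gene. In the transcript before the 3′ UTR the share was 0.331% in Ywhag, 0% in Ywhae, 0% in Ywhab and 52.4% in Ywhaz. There it was 48.45% in Ywhah, 88.25% in Ywhaq and 40.57% in Sfn. The other gene could be any gene, and the genes sharing the Ywhaz words were not listed. With 0% in Ywhae and Ywhab, that part of their transcripts held none of the Ywhaz words. Copies in the genome outside annotated transcripts were not searched, and reads shorter than 28 nt can match more places. How reads with several matches were handled was not stated, and its part in the 0 Ywhaz reads upstream of the 3′ stretch was not tested.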

How the data were processed

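iCLIP reads of 1 anti-Rbfox1 and 1 anti-Flag library were analysed as deposited by the authors, 1 aligned read per line with its first base, last base, strand and 1 more position. The aligner was Bowtie and the build mm9, per the submitters' processing notes. Versions, the handling of reads with several matches and the removal of PCR copies were not stated in the sources used. The additional position was the base just upstream of the read (by 1 nt) in 64820 of 64820 anti-Rbfox1 and 569 of 569 anti-Flag reads and was taken as the crosslink position. No read counts before filtering were used, so shares and empty regions refer to deposited reads.

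Crosslink positions up to 20 nt apart on a strand were joined into clusters, and clusters with outer bases up to 1000 nt apart into stretches. Shares have exact Clopper-Pearson 95% intervals, ratios of shares exact conditional intervals and reads per kb exact Poisson intervals; a count of 0 allows 3 counts. No test was run. The genes and lists were chosen with earlier results of these data known. Named are all 4 genes, their highest clusters, clusters of at least 50 reads and all control clusters inside the windows; smaller clusters, single positions and the comparison of read length by cluster were added after their values were seen. For motifs and shared words, the longest protein-coding transcript per gene in GENCODE M21 was used, and neighbours came from RefSeq (GRCm38.p6). On simulated data, 36 of 36 planted clusters were found. These were compact and far apart on their strand, so the joining of clusters as close as those of the genes was not tested. Python 3.11.15, numpy 2.4.6, pandas 2.3.3, scipy 1.17.1 and matplotlib 3.10.9 were used.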

Additional observations from a re-analysis of the deposited data

How the results depend on the processing

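Of 30 alternative settings, 17 left the value within its interval and 13 moved it. The genes' share of the anti-Rbfox1 library, 2.16% of reads, was 1.24% of positions, 0.207% of clusters, 1.96% with near-identical reads counted as 1, and 2.99% or 3.65% of reads in clusters of at least 5 or 10 reads. The lower share of positions follows from 2.35 reads per position in the genes and 1.34 outside. All clusters of the genes held at least 6 reads, so the cut at 5 could only raise the share. The ratio to the control, 6.14, was 0.483 by clusters, and 3.26 by positions (0.897 to 26.9), 7.84 with near-identical reads counted as 1 (1.40 to 309.9) and 2.64 in the matched block (0.730 to 21.8). Joining within 50 nt raised the share of the highest cluster to 76.2% in Ywhag, 90.7% in Ywhae and 53.3% in Ywhaz, by construction, and by positions the Ywhag share was 33.1%. The median read length was 31 nt with the longest read per position, a choice that favours long reads. The fourth block held 96.97% of the genes' positions and 85.7% of their clusters, beside 4980 of all 10134 clusters. The lower ratio in the matched block follows mostly from its share of each library, 74.15% of anti-Rbfox1 and 32.5% of anti-Flag reads. Where the ratio was 7.84, the 2 control reads in the windows, which shared their 3′ end, counted as 1. The cause of the other changes was not tested. No paired analysis was possible because there was a single library per antibody. The 569 control reads limit every comparison with it.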
